A study of Mus musculus with 3 samples.

Results

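MHC class II molecules display peptides from the endosomal pathway to CD4+ T cells, and B cells use them to obtain T cell help. The 10 genes followed here encode the classical chains (H2-Aa, H2-Ab1, H2-Eb1), the invariant chain (Cd74), the peptide editor H2-DM (H2-DMa, H2-DMb1, H2-DMb2), its inhibitor H2-O (H2-Oa, H2-Ob) and the coactivator CIITA (Ciita). They were taken by name, and each matched 1 row of the 32285 gene rows in every library. CIITA does not bind DNA itself: it is recruited by the factors RFX, CREB and NF-Y, which sit on the X and Y boxes of class II promoters. In B cells IL-4 is a known inducer of class II, and the plasma cell regulator Blimp-1 (Prdm1) is a known repressor of Ciita.

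The cells were spleen B cells of female wild-type BXD2 mice, a recombinant inbred strain prone to lupus-like disease, whose age the labels do not give. One group (IL-4+R848) was injected with 5 µg of IL-4 held in a long-lived complex by 25 µg of an antibody to it, and the other (R848) with the same 25 µg of antibody and no cytokine. R848, a TLR7 agonist, followed in every mouse 2 hours later at 40 µg per 20 g of body weight. Both injections were given again after 2 days and spleens were collected 2 days after that, with 3 mice per treatment. Every animal thus received R848 and the antibody, and no untreated cells were studied. Cells of both treatments, marked with hashtag antibodies, shared 3 single-cell 5' libraries (sets 1 to 3), and a surface antibody panel held none against class II.

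Of the members, 8 lie within the class II region of chromosome 17 (GRCm38 coordinates from GENCODE): H2-Oa at chr17:34092340-34095234, H2-DMa at chr17:34119541-34139101, H2-DMb2 at chr17:34143307-34151555, H2-DMb1 at chr17:34153072-34160230, H2-Ob at chr17:34238903-34254414, H2-Ab1 at chr17:34257689-34269419, H2-Aa at chr17:34282744-34287823 and H2-Eb1 at chr17:34305867-34316674. Cd74 lies at chr18:60803848-60812652 and Ciita at chr16:10480059-10528418. H2-Aa is on the minus strand and the other members are on the plus strand. H2-DMb1 and H2-DMb2 are near copies and may split reads, and H2-DMa, H2-Eb1, H2-Oa and Ciita overlap genes annotated on the opposite strand, so their counts carry that uncertainty. The counts were made on mm10, a C57BL/6J build, and which parental class II alleles BXD2 carries is not given in the sources used here.

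After filtering, 20317 R848 cells and 14785 IL-4+R848 cells remained, and adding up the UMIs of each B cell state within a set and treatment gave 54 sums of 82 to 2701 cells. Median UMIs per cell were 5094, 5932 and 4446 in the R848 cells of sets 1 to 3 and 6208, 6995 and 5199 in the IL-4+R848 cells. Levels are CPM of these sums after TMM scaling, and 3 values in a row are sets 1, 2 and 3. Genes count as called where edgeR's quasi-likelihood test, adjusted by Benjamini-Hochberg (BH) over every gene tested, gave a p under 0.05. The sets are the replicates, and the labels do not say that each holds separate mice, so p-values measure the spread between sets. Across the 54 sums, summed markers of conventional dendritic cells (6 genes) reached at most 24.8 CPM, those of monocytes or macrophages (7 genes) 20.5 CPM and those of plasmacytoid dendritic cells (4 genes) 58.0 CPM. The clearest limit is the hashtags: a stricter rule, the own tag 10-fold the other, kept 93.1% to 98.0% of cells in most groups, but only 48.6% of germinal center-like and 59.1% of plasmablast-like R848 cells, and 80.6% and 82.6% of the IL-4+R848 cells of these states.

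The promoter is where CIITA acts, so the stretches that hold X-box and Y-box letters are shown first. RefSeq promoters (GRCm38.p6, 250 bases before to 50 after the annotated start) were matched for 7 members, H2-DMa with 2 entries. Each line is 90 bases long, 5′ to 3′ on the gene's strand, and capitals mark matches to CTANNAAC followed after 2 further bases by ATGATG (X1 and X2 box letters joined) and to TGATTGG (the core of the Y box, with the inverted CCAAT that NF-Y binds).
H2-Eb1 (chr17:34305735-34305824, plus strand): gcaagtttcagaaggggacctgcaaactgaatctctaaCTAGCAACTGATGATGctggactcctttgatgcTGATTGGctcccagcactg
H2-DMb1 (chr17:34153057-34153146, plus strand): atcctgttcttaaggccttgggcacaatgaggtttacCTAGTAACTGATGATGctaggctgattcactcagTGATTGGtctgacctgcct
H2-DMb2 (chr17:34145086-34145175, plus strand): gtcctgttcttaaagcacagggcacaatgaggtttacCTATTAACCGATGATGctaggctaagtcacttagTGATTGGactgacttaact
H2-Ob (chr17:34238775-34238864, plus strand): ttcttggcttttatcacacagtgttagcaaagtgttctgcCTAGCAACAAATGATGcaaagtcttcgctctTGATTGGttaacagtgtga
H2-Aa (chr17:34287855-34287944, minus strand): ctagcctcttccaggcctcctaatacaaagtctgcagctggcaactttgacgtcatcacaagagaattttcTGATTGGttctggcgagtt
H2-Oa (chr17:34092263-34092352, plus strand): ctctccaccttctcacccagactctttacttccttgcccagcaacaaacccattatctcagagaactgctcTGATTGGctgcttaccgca

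The joined X-box letters were found in 4 of the 7 members, H2-Eb1, H2-DMb1, H2-DMb2 and H2-Ob, with 15 to 18 bases between X and Y and no overlap of the motifs. On either strand they occur in 5 of 32851 promoters (0.0152%), the fifth being Frmd4b. The Y-box core was present in 6 of these 7 members and in 7.82% of all promoters. Neither H2-DMa entry held these letters. Both begin inside its annotated span (chr17:34119541-34139101), with the bases just before their starts at chr17:34122732-34122831 and chr17:34125418-34125517. The stretch before the annotated start of H2-DMa had no entry, so a lack of X or Y boxes there is not shown. A match is a description of the sequence and was not tied to the counts below.

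IL-4 raised class II transcripts in follicular-like B cells, the resting recirculating B cells that made up 13899 of the 35102 cells. There 9 of the 10 members were higher with IL-4+R848 than with R848, where 8.27% of all 10797 genes tested were called higher. The member median was a log2 fold change of 0.37, against -0.01 for all genes. H2-DMa, H2-DMb2, Ciita and H2-Oa had log2 fold changes of 0.59 to 0.74, and the other called members of 0.28 to 0.38; differences between genes were not tested.

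Ciita was at 137, 141 and 125 CPM with R848 and at 220, 197 and 200 CPM with IL-4+R848, a log2 fold change of 0.63 ± 0.07 (SE, adjusted p = 7.8e-05). No set overlapped with the other group. H2-DMa, the DM alpha chain, went from 553, 586 and 564 CPM to 919, 946 and 951 CPM (0.74 ± 0.05, adjusted p = 2.6e-06). H2-DMb2 was at 785, 796 and 749 CPM against 1223, 1223 and 1138 CPM (0.63 ± 0.05, adjusted p = 1.2e-05). The third DM gene, H2-DMb1, moved less on the log2 scale, from 106, 116 and 108 CPM to 141, 150 and 130 CPM (0.36 ± 0.07, adjusted p = 0.0035).

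Of the inhibitor H2-O, the alpha chain was called and the beta chain was not. H2-Oa rose from 480, 506 and 478 CPM to 742, 721 and 718 CPM (0.59 ± 0.05, adjusted p = 1.7e-05). H2-Ob was at 802, 778 and 817 CPM with R848 and at 764, 782 and 809 CPM with IL-4+R848 (-0.01 ± 0.05, adjusted p = 0.91). The H2-Ob groups overlapped, and H2-Ob was the single member that was not called. The ratio of H2-Oa to H2-Ob UMIs was 0.599, 0.651 and 0.586 with R848 and 0.971, 0.922 and 0.887 with IL-4+R848, without overlap.

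The classical chains and the invariant chain were all called higher. H2-Aa was at 5662, 5701 and 5580 CPM with R848 and at 7089, 6995 and 7257 CPM with IL-4+R848 (0.34 ± 0.05, adjusted p = 0.00048). H2-Ab1, the partner beta chain of H2-Aa, went from 3412, 3566 and 3137 CPM to 4361, 4408 and 4253 CPM (0.38 ± 0.06, adjusted p = 0.00078). H2-Eb1, the other classical beta chain, had the smallest called change, from 4366, 4423 and 4363 CPM to 5209, 5231 and 5354 CPM (0.28 ± 0.05, adjusted p = 0.0022). Cd74, which guards the peptide groove until the endosome, was at 20864, 20036 and 19755 CPM against 26168, 25257 and 26124 CPM (0.37 ± 0.05, adjusted p = 0.00036). For each of these 4 genes every IL-4+R848 set lay above every R848 set. The 10 genes together took 3.75% ± 0.135 (SD, n = 3) of all UMIs with R848 and 4.42% ± 0.0479 with IL-4+R848. In UMIs per cell the gap was wider, 165 ± 23.0 against 261 ± 35.4, since IL-4+R848 cells also held more UMIs.

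The follicular-like state held a cluster that was 89.7% IL-4+R848 cells, led by Gadd45g, Il4i1 and Nfil3. Without that cluster 9 members were still called, and without set 1 7 members were, H2-Eb1 and H2-DMb1 no longer passing. Over all genes, 478 of 10871 were called higher without set 1, against 893 of 10797 with all sets. When cells were clustered with centring within sets only, so that treatment could split clusters, H2-Ob was called lower (-0.25, adjusted p = 0.0019).

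**Figure D1:**
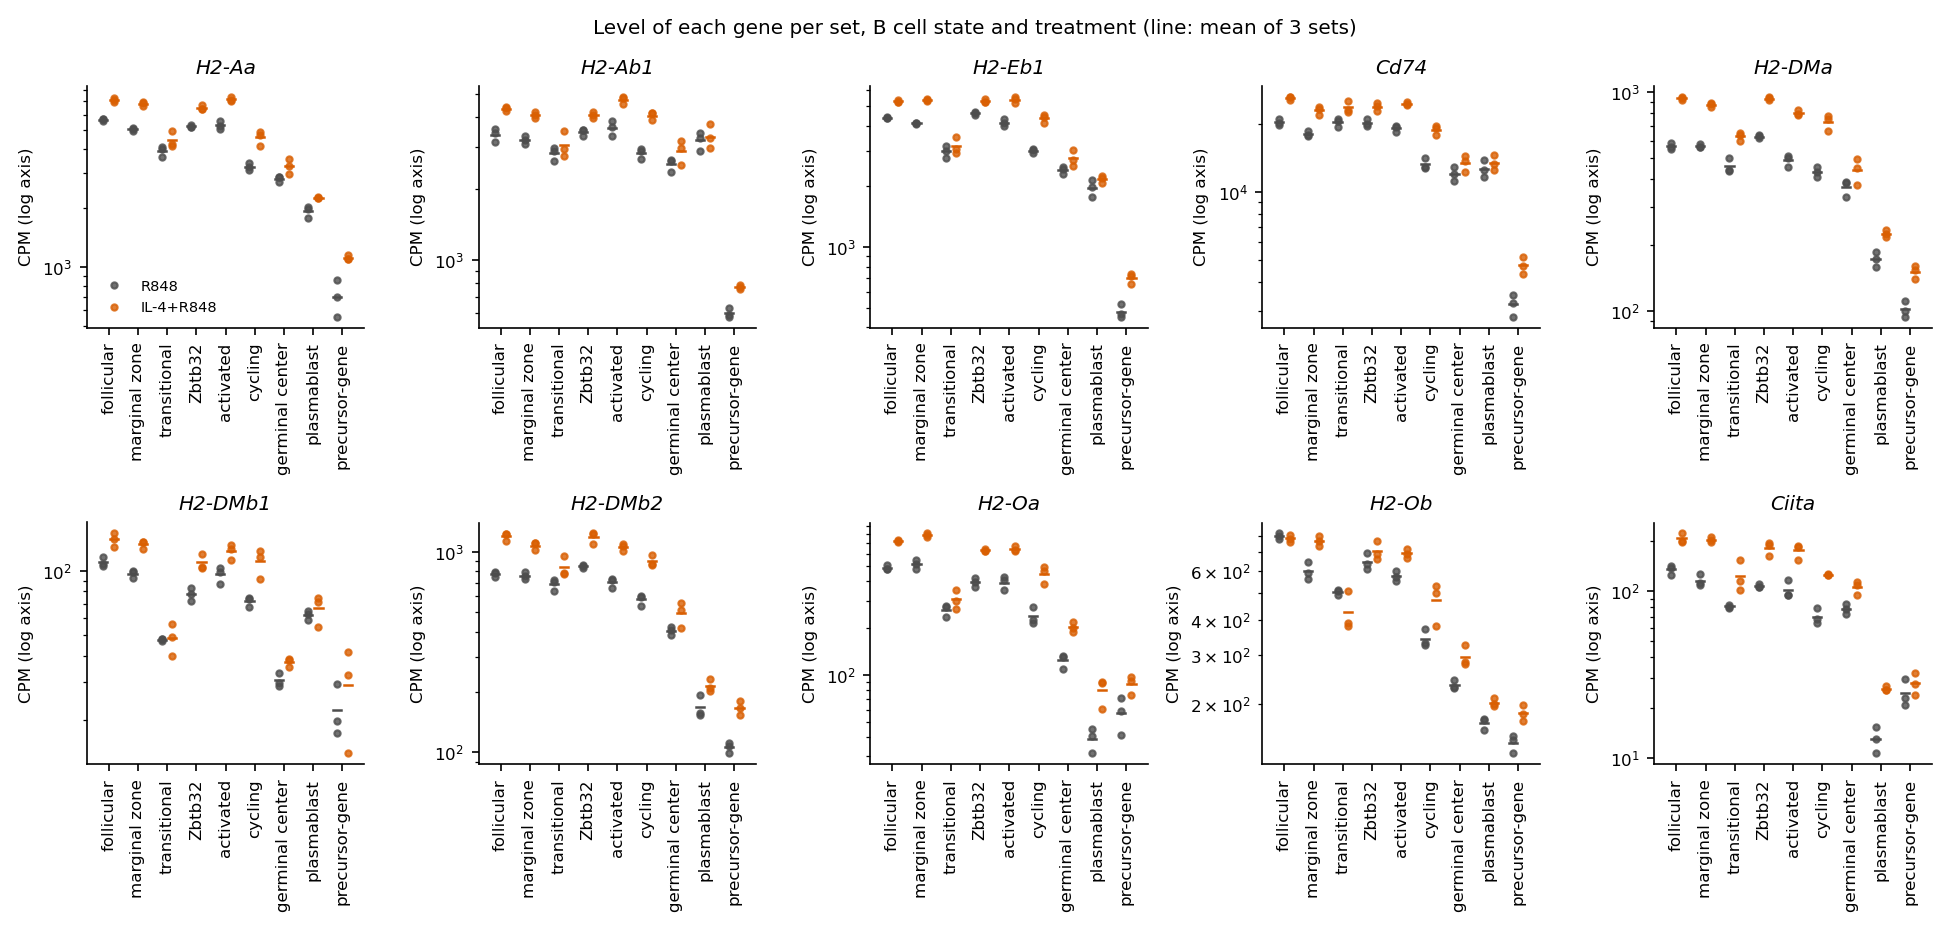
Level of each of the 10 genes (CPM, log axis) in 9 B cell states; each point is the sum of 1 set, black for R848 and orange for IL-4+R848, and the lines are means of 3 sets. H2-Ab1 stays near its follicular-like level in plasmablast-like cells, where Ciita falls from 125 to 141 CPM to between 11 and 15 CPM.

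IL-4 raised the same genes in most other mature states. All 10 members were called higher in marginal zone-like cells, the blood-facing innate-like B cells (2.44% of all genes were called higher there), and all 10 in activated-like cells, marked by immediate-early genes (3.31%). In a state led by Zbtb32 and S100a6 9 members were called, H2-Ob being the exception (2.16%), and in cycling-like cells 8 were, H2-Ob and H2-DMb1 not passing (0.726%). Without set 2 the count in the Zbtb32 state was 3, without set 1 it was 7 and without set 3 it was 5, while the count over all genes went from 206 higher to 61, 160 and 107. In cycling-like cells, the state with the fewest cells, it was 2 without set 2 and 3 without set 3, with 34 and 44 genes called higher in all against 64. Markers of B cell types moved with treatment inside these states too. In marginal zone-like cells the 7 marginal zone markers summed to 646 to 770 CPM with R848 and 410 to 473 CPM with IL-4+R848, and the 7 age-associated markers to between 280 and 353 against 181 to 207 CPM. In follicular-like cells the 5 follicular markers went from between 2457 and 2983 to between 1957 and 2128 CPM, and the 4 B-1 markers from between 24.8 and 26.1 to between 8.18 and 12.4 CPM. The 6 conventional dendritic cell markers were at 1.69 to 2.62 CPM with R848 and 0.476 to 0.744 CPM with IL-4+R848 in follicular-like cells. The part of these shifts in the member values was not tested.

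Ciita had the largest log2 fold change of the 10 members in the marginal zone-like state, from 108, 126 and 112 CPM to 211, 196 and 202 CPM (0.84 ± 0.08, adjusted p = 2.9e-05). It also led the activated-like state, from 94, 117 and 94 CPM to 183, 187 and 154 CPM (0.80 ± 0.11, adjusted p = 0.0009). In the Zbtb32 state Ciita went from 105, 110 and 105 CPM to 195, 161 and 187 CPM (0.77 ± 0.09, adjusted p = 0.0013). The groups did not overlap in any of these states.

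H2-Oa led in cycling-like cells, where it went from 273, 225 and 217 CPM to 387, 464 and 493 CPM (0.91 ± 0.12, adjusted p = 0.0032). H2-Ob, flat in follicular-like cells, rose in marginal zone-like cells from 561, 588 and 645 CPM to 768, 739 and 800 CPM (0.38 ± 0.06, adjusted p = 0.0037). Its rise in activated-like cells was from 573, 602 and 550 CPM to 692, 667 and 722 CPM (0.30 ± 0.06, adjusted p = 0.015). The difference of the H2-Ob effect from that in follicular-like cells was not called in either state (marginal zone-like 0.39 ± 0.13, adjusted p = 0.25, and activated-like 0.30 ± 0.13, adjusted p = 0.51).

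Fewer members passed in the remaining 4 states. In transitional-like cells, recent emigrants from the bone marrow, 2 members were called, Ciita (0.61 ± 0.13, adjusted p = 0.016) and H2-DMa (0.47 ± 0.08, adjusted p = 0.0037), where 1.8% of genes were called higher. With the set as a block, H2-DMb2 and Cd74 passed as well, 4 in all (2.6%). The sums of 5 of the 10 members were higher without overlap, as for 8.04% of all genes. Ciita was at 83, 79 and 80 CPM against 152, 115 and 102 CPM, and H2-DMa at 442, 501 and 435 CPM against 652, 637 and 597 CPM. Clustered with centring within sets only, none of the 10 was called higher in this state and H2-Ob was called lower (-0.44, adjusted p = 0.01). Without set 1, H2-Ob was also called lower (-0.38, adjusted p = 0.03), and Ciita was not called without set 1 (adjusted p = 0.1) or without set 2 (adjusted p = 0.12).

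In germinal center-like cells, which compete for T cell help by presenting antigen, H2-Oa alone was called, from 131, 132 and 110 CPM to 199, 221 and 189 CPM (0.72 ± 0.10, adjusted p = 0.023), beside 0.238% of genes. With the set as a block Ciita (0.44, adjusted p = 0.03) and H2-Ob (0.35, adjusted p = 0.036) also passed, 3 in all (0.737%). The sums of 6 of 10 members were higher without overlap, as for 6.37% of all genes. No member was called without set 1, without set 2 or under the 10-fold hashtag rule, where H2-Oa had an adjusted p of 0.15, 0.09 and 0.20.

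In plasmablast-like cells, the antibody-secreting state, no member was called, and neither was any of the 10301 genes tested with edgeR (0%), although 512 genes had an unadjusted p under 0.05. DESeq2 called 27 genes higher and 11 lower there, among them H2-Oa, Ciita and H2-DMa. The 6 members without overlap compare with 4.62% of all genes. H2-Oa was at 45, 41 and 31 CPM against 61, 89 and 90 CPM (1.04 ± 0.20, adjusted p = 0.35), and H2-Ab1 at 3426, 3276 and 2888 CPM against 3726, 3257 and 2948 CPM (0.06 ± 0.14, adjusted p = 1).

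Cells expressing the B cell precursor genes Igll1, Vpreb1 and Rag1 had no called member (0.147% of genes higher), and 2, H2-Aa and Cd74, with the set as a block (0.342%). Of their members 8 lay higher without overlap, as for 6.16% of all genes. H2-Aa was at 697, 856 and 553 CPM against 1090, 1099 and 1152 CPM (0.67 ± 0.15, adjusted p = 0.14). This state was the shallowest of the 9, with a median of 2679 UMIs per cell.

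**Figure D2:**
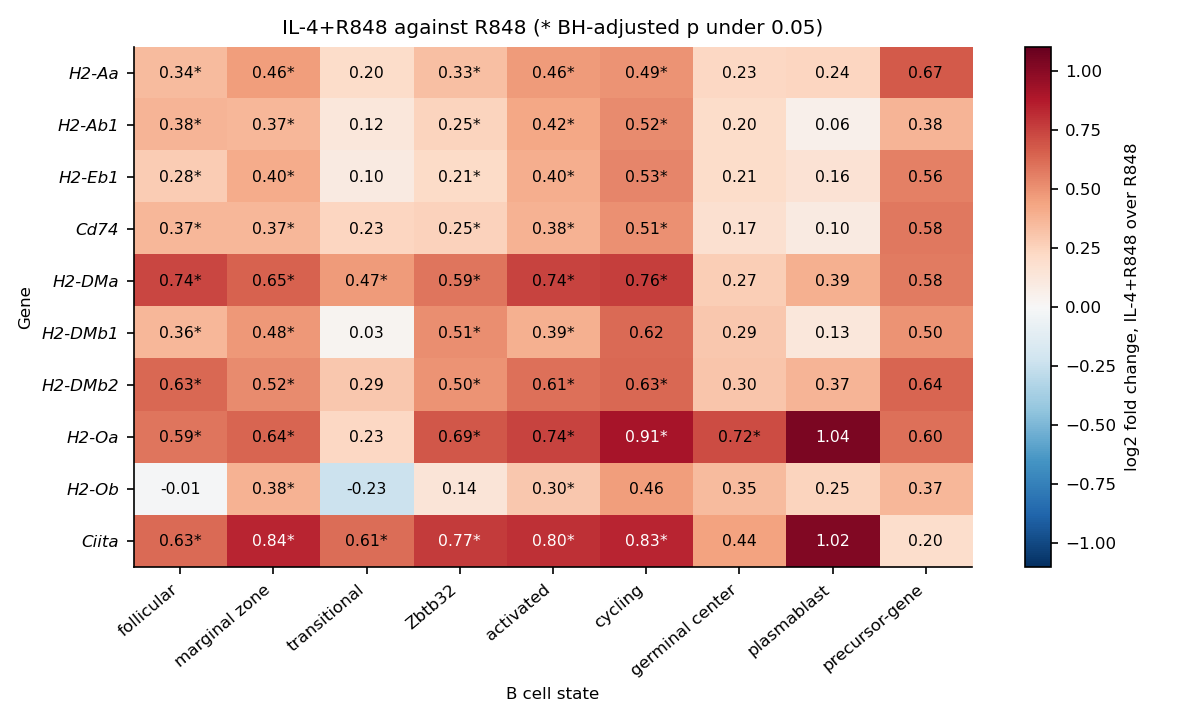
Log2 fold change of each gene (rows) with IL-4+R848 over R848 in each B cell state (columns), from edgeR on 3 sums per group; an asterisk marks a BH-adjusted p under 0.05. Ciita, H2-DMa and H2-Oa are the most strongly coloured rows, and H2-Ob is at -0.01 in follicular-like cells.

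Whether the IL-4 effect itself differed between states was tested as an interaction with follicular-like cells. Of 80 member and state pairs 1 was called, H2-DMa in germinal center-like cells, whose effect was lower by 0.47 ± 0.11 on the log2 scale (log2 difference -0.47, adjusted p = 0.012). Over all genes 0.921% of gene and state pairs were called in either direction, and 1.26% of genes were called lower in the germinal center-like contrast. H2-DMa was at 386, 390 and 333 CPM with R848 and at 452, 498 and 378 CPM with IL-4+R848 in germinal center-like cells, so the groups overlapped there. Its interaction had adjusted p = 0.23 without set 1, 0.069 without set 2 and 0.063 without set 3. With the set as a block 3 pairs passed, H2-DMb2 in germinal center-like cells (-0.33, adjusted p = 0.026) and H2-Ab1 in plasmablast-like cells (-0.32, adjusted p = 0.02) being added. Over all genes, 236 of 11437 were then called lower in the germinal center-like contrast, against 144 without the block. In the plasmablast-like contrast the counts were 185 and 130. With centring within sets only, H2-DMa was not called (adjusted p = 0.11) and 5 other pairs were, 4 of them H2-Ob, whose effect was higher than in follicular-like cells in the cycling-like, germinal center-like, marginal zone-like and plasmablast-like states. The smaller number of calls in the transitional-like and precursor-gene states is not shown to be a weaker effect.

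Without IL-4, class II transcripts had lower CPM in dividing, germinal center-like, antibody-secreting and precursor-gene cells than in resting cells. The amounts varied from gene to gene. In UMIs per R848 cell the order differed. The 10 genes held 408 ± 66.7 UMIs (SD over sets) in cycling-like and 377 ± 36.7 in germinal center-like cells, against 165 ± 23.0 in follicular-like cells. Plasmablast-like cells also held more per cell (217 ± 29.4), and precursor-gene cells held fewer. Each state was compared with follicular-like cells among R848 cells, with the set as a block. All 10 members were lower in cycling-like cells (23.7% of all genes were called lower), in germinal center-like cells (36.2%), in plasmablast-like cells (36.3%) and in precursor-gene cells (19%). In transitional-like cells 8 were lower (11.2%), Cd74 and H2-DMb2 not passing. Fewer were lower in activated-like cells (4, 15.1%), in the Zbtb32 state (3, 8.37%) and in marginal zone-like cells (2, 8.98%), and no member was called higher in any state. Member medians ran from -0.04 in the Zbtb32 state to -0.86 in germinal center-like, -1.65 in plasmablast-like and -2.62 in precursor-gene cells, against -0.03 to 0.02 for all genes.

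In germinal center-like cells both chains of the inhibitor were lower in CPM, by 1.93 and 1.72 on the log2 scale. The classical chains were lower by 0.37 to 0.96. Germinal center-like cells held more UMIs in all, with a median of 14274 per cell against 4811 over both treatments. Per R848 cell, H2-Oa was at 2.24 UMIs against 2.21 in follicular-like cells, H2-Ob at 4.21 against 3.60 and H2-Ab1 at 45.6 against 15.3. The comparisons that follow are of CPM. H2-Oa was at 131, 132 and 110 CPM against 480, 506 and 478 CPM in follicular-like cells (-1.93 ± 0.11, adjusted p = 2.3e-13), and H2-Ob at 229, 243 and 230 CPM against 802, 778 and 817 CPM (-1.72 ± 0.07, adjusted p = 8.6e-16). H2-DMb1 was lower alongside them (-1.80 ± 0.08, adjusted p = 8.4e-15), and its near copy H2-DMb2 by 0.89 on the log2 scale (-0.89 ± 0.06, adjusted p = 1.1e-11). H2-Ab1 differed least (-0.37 ± 0.04, adjusted p = 5.3e-08), and Ciita by an amount between (-0.73 ± 0.08, adjusted p = 6.7e-08). H2-DMb1 was at 29, 33 and 30 CPM there, against 106, 116 and 108 CPM in follicular-like cells.

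In plasmablast-like cells all 10 members were lower than in follicular-like cells, Ciita and H2-Oa by the most and H2-Ab1 by the least. Ciita was at 13, 15 and 11 CPM (-3.40 ± 0.10, adjusted p = 1.8e-18) and H2-Oa at 45, 41 and 31 CPM (-3.68 ± 0.12, adjusted p = 6.1e-18). H2-DMb2 was at 193, 156 and 153 CPM (-2.24 ± 0.06, adjusted p = 1.3e-18) and H2-DMa at 187, 159 and 174 CPM (-1.73 ± 0.07, adjusted p = 1.4e-15). H2-Aa, at 2028, 1978 and 1782 CPM, was 1.57 lower on the log2 scale (-1.57 ± 0.08, adjusted p = 4.3e-14), while its partner H2-Ab1, at 3426, 3276 and 2888 CPM, was close to its follicular-like 3412, 3566 and 3137 CPM (-0.10 ± 0.04, adjusted p = 0.037). The ranges of H2-Ab1 overlapped. Also called lower were Cd74 (-0.70 ± 0.05, adjusted p = 2.2e-11), H2-DMb1 (-0.85 ± 0.08, adjusted p = 1.3e-09), H2-Eb1 (-1.18 ± 0.06, adjusted p = 7.5e-15) and H2-Ob (-2.24 ± 0.07, adjusted p = 6.3e-18).

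The ratio of H2-Ab1 to H2-Aa UMIs shows this split within each library. It was 0.597 ± 0.0320 (SD, n = 3) in follicular-like R848 cells, 0.897 ± 0.0296 in germinal center-like cells and 1.66 ± 0.0345 in plasmablast-like cells. As a ratio of 2 genes in the same cells it does not depend on scaling, which matters because 41.0% to 42.8% of the UMIs of plasmablast-like R848 cells came from immunoglobulin genes. The small H2-Ab1 difference was not called with DESeq2's size factors in edgeR (-0.07, adjusted p = 0.13), without the set as a block (-0.10, adjusted p = 0.25), with the immunoglobulin genes left out (-0.05, adjusted p = 0.28) or without set 2 (-0.08, adjusted p = 0.18) or set 3 (-0.04, adjusted p = 0.55). Under the 10-fold hashtag rule it had the other sign (0.07, adjusted p = 0.11), with the other 9 members still called lower.

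Per cell, plasmablast-like cells held 217 ± 29.4 UMIs of the 10 genes with R848, more than the 165 ± 23.0 of follicular-like cells, and they held far more UMIs in all (medians of 17360, 19238 and 17181 against 3991, 4603 and 3603 in R848 cells). As a share of UMIs the order was the reverse, 1.16% ± 0.117 against 3.75% ± 0.135. The dividing plasmablast-like cluster, of 263 R848 cells, held 52.5 H2-Ab1 and 0.278 Ciita UMIs per cell, and the other, of 1887, held 30.5 and 0.113. In both clusters H2-Ab1 was therefore abundant beside little Ciita.

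**Figure D3:**
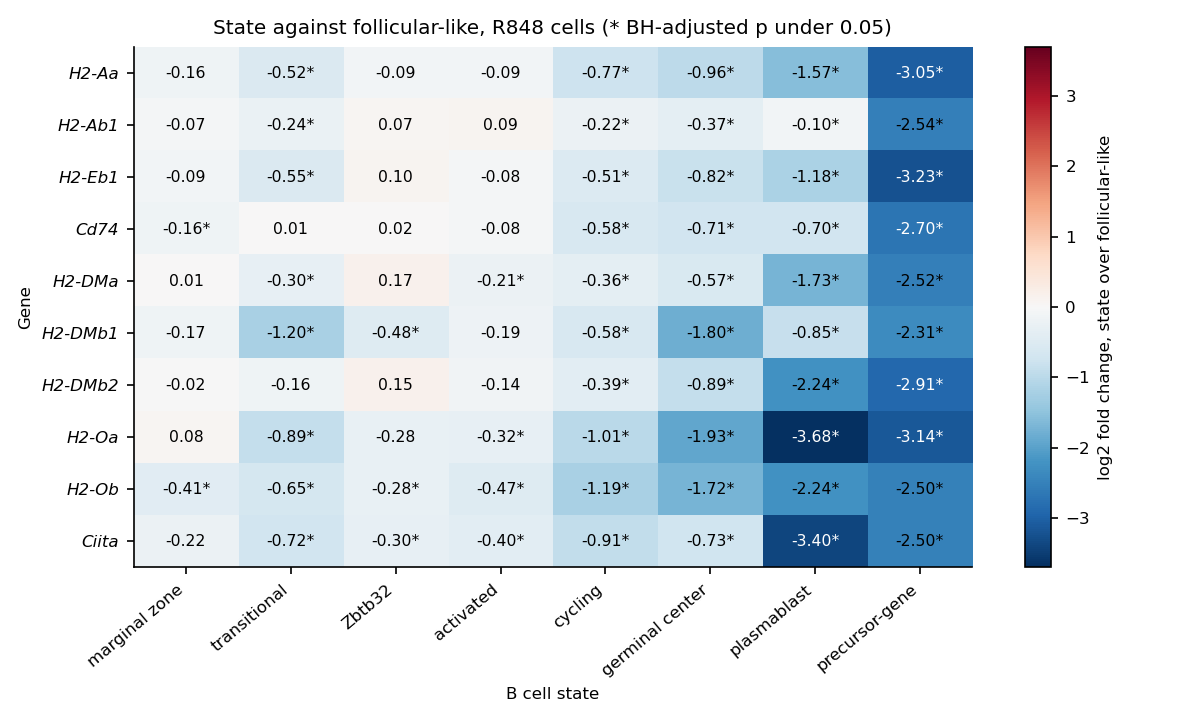
Log2 fold change of each gene (rows) in each B cell state (columns) against follicular-like cells, R848 cells only, from edgeR with the set as a block; an asterisk marks a BH-adjusted p under 0.05. The plasmablast column runs from -3.68 for H2-Oa to -0.10 for H2-Ab1, while the precursor-gene column is more even, from -3.23 to -2.31.

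Free RNA can give class II UMIs to cells that do not express it, so NK cell-like cells, which do not normally express class II in the mouse, were read as well. That cluster (282 cells) was also led by myeloid genes such as Lyz2, so its cells with at least 2 NK markers and no UMI of monocyte, neutrophil, dendritic or B cell markers, 8 with R848 and 55 with IL-4+R848, were taken apart. The 55 IL-4+R848 cells held 1.55 Cd74 and 0.345 H2-Ab1 UMIs per cell at a median of 6532 UMIs. Without TMM scaling that is 222 CPM for Cd74 and 49.7 CPM for H2-Ab1, far below the unscaled 7328 CPM of Cd74 and 1781 CPM of H2-Ab1 in the larger plasmablast-like cluster with R848. H2-DMa was at 96.8 CPM in the same 55 cells, above H2-Ab1, whereas in follicular-like R848 cells H2-DMa was at 568 CPM and H2-Ab1 at 3372 CPM on average with TMM scaling, which leaves their ratio as it is. The members were thus not in the proportions of the B cells, and these values set no floor for H2-DMa. None of the 55 held a Ciita UMI, which allows up to 6.49% of such cells to carry one (exact 95% interval, counting error only) and does not limit the share that express the gene.

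To compare shares of cells at equal depth, cells were thinned to 2000 UMIs. A Ciita UMI was then seen in 22.9% ± 1.70 of follicular-like R848 cells (40.5% unthinned) and 30.3% ± 1.46 of IL-4+R848 cells (60.3% unthinned), with 522 and 456 shallower cells left out. In marginal zone-like cells the shares were 21.1% and 32.5% (51.0% and 70.3% unthinned). In plasmablast-like cells they were 1.12% and 2.87% (9.04% and 14.6% unthinned). H2-Oa was seen in 4.94% and 6.86% of thinned plasmablast-like cells and H2-Ob in 19.8% and 20.1%. The NK cell-like cluster, too small and too mixed to serve as a background for such low shares, had Ciita in 0%, 5.88% and 0% of its thinned R848 cells in sets 1 to 3, so the part of free RNA in the low Ciita and H2-Oa shares was not tested. H2-Ab1 was seen in 87.0% of thinned plasmablast-like R848 cells.

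Within a state cells differed widely. The UMIs of the 10 genes per 10000 in a cell had a median of 379 ± 12.9 in follicular-like R848 cells, with 5% of cells under 241 and 5% over 543. With IL-4+R848 the median was 443 ± 4.54 and those limits were 311 and 606, so the low end moved up with the middle. Plasmablast-like R848 cells ran from 22.9 at the 5th percentile through a median of 98.2 to 373 at the 95th. Doublets of cells of the same treatment were not removed, and their part in the upper end was not tested.

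**Figure D4:**
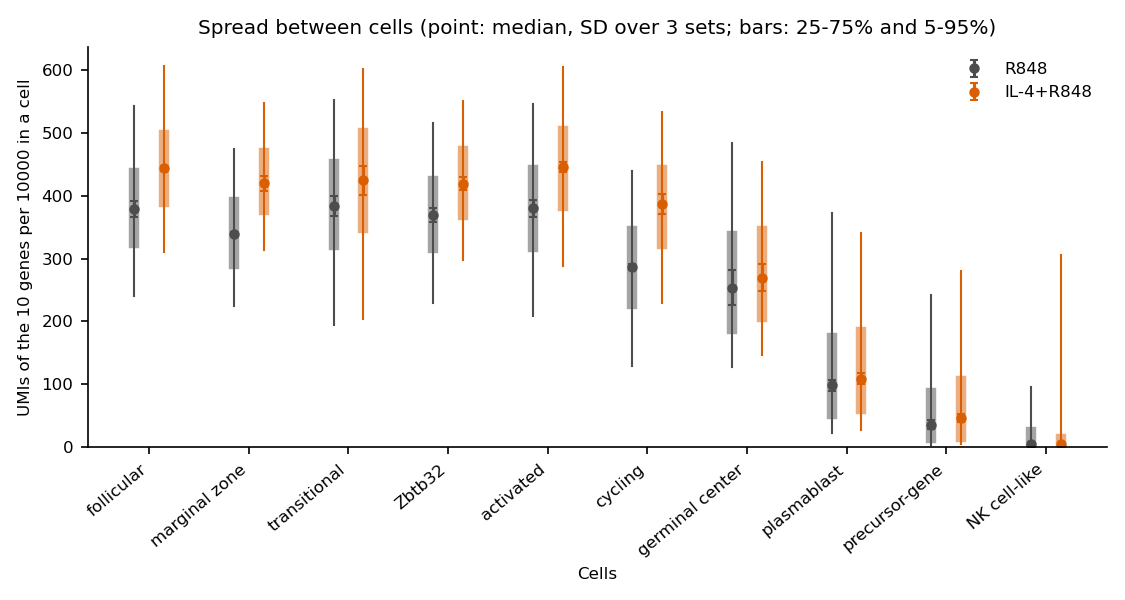
UMIs of the 10 genes per 10000 UMIs in a cell, by state and treatment; points are medians with the SD over 3 sets, thick bars the 25th to 75th and thin bars the 5th to 95th percentiles, each a mean over sets. Follicular-like medians are 379 with R848 and 443 with IL-4+R848, and plasmablast-like medians are near 100. The NK cell-like cluster is mixed, with a median of 4.62 and a 95th percentile of 306 with IL-4+R848.

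H2-O inhibits H2-DM, so the ratio of H2-Oa and H2-Ob UMIs to those of the 3 DM genes was compared between treatments in each state. In follicular-like cells it was 0.888, 0.857 and 0.912 with R848 and 0.660, 0.648 and 0.688 with IL-4+R848. In transitional-like cells it was 0.653, 0.622 and 0.652 against 0.519, 0.467 and 0.459. The ratio was thus lower with IL-4 in all 3 sets of both states, without overlap, by 0.41 and 0.42 on the log2 scale (log2 differences -0.41 and -0.42).

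Germinal center-like cells started lower, at 0.438, 0.444 and 0.454, and went the other way, to 0.478, 0.499 and 0.565 (0.20 on the log2 scale). Activated-like and precursor-gene cells had lower ratios with IL-4 without overlap (-0.15 and -0.16), and the groups overlapped in the other 4 states. Each of the 5 states without overlap had an exact two-sided permutation p of 0.1, the smallest that 3 against 3 sums allow, and 0.18 after BH adjustment over 9 states, so none passes 0.05. Transcript ratios say nothing of the DM and DO proteins, which were not measured.

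**Figure D5:**
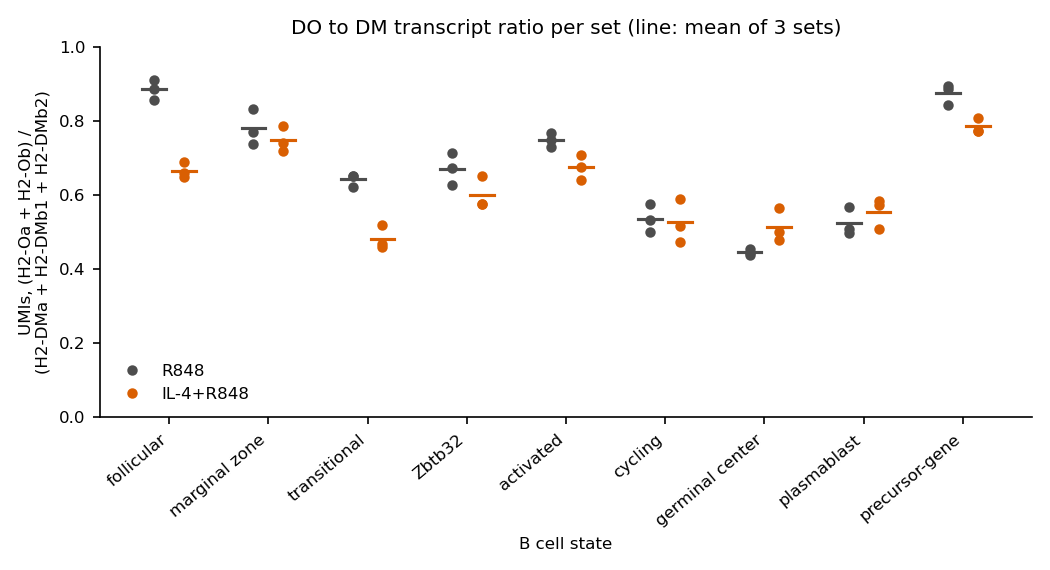
Ratio of H2-Oa plus H2-Ob UMIs to H2-DMa, H2-DMb1 and H2-DMb2 UMIs (linear axis from 0) by state; each point is 1 set, black for R848 and orange for IL-4+R848, and lines are means of 3 sets. The orange points lie below the black in follicular-like and transitional-like cells and above them in germinal center-like cells.

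The treatments were also compared among cells gated on surface antibody tags alone, which uses no RNA. Whether treatment moved the gating tags themselves, CD23 among them, was not tested. Such a shift would move cells between gates, so a gate need not hold the same kinds of cells in both treatments. The IgD and CD23 gate held 8671 R848 and 9254 IL-4+R848 cells. Among cells high for IgD and CD23, the follicular phenotype, all 10 members were called higher with IL-4 (6.93% of all genes), H2-Ob included, from 557, 563 and 602 CPM to 672, 683 and 705 CPM (0.26 ± 0.05, adjusted p = 0.0091). Ciita there went from 99, 110 and 99 CPM to 188, 172 and 174 CPM (0.80 ± 0.06, adjusted p = 5.4e-05). The gate is broader than the RNA state: follicular-like cells were 47.3% ± 4.14 of it with R848 and 68.3% ± 2.54 with IL-4+R848.

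Among CD21-high, CD23-low cells, the marginal zone phenotype, 9 members were called (1.15%), all but H2-Ob, and none without set 1 or without set 2. This gate held 3440 R848 but 628 IL-4+R848 cells, of which marginal zone-like cells were 35.1% ± 2.25 and 38.6% ± 3.09, and more marginal zone-like cells fell in the IgD and CD23 gate (2568) than in it (1457). H2-Oa led this gate, from 270, 265 and 283 CPM to 421, 450 and 421 CPM (0.67 ± 0.08, adjusted p = 0.0066). Among CD138-high cells, CD138 marking plasma cells, no member was called (0.0187% of genes, 2 of 10683, were higher), and H2-Ob was at 274, 319 and 209 CPM against 163, 195 and 160 CPM (-0.63 ± 0.19, adjusted p = 0.38). That gate held 55.4% ± 11.8 plasmablast-like cells with R848 and 81.1% ± 8.64 with IL-4+R848, so the treatments differed in how pure the gate was, and the part of this in the H2-Ob values was not tested.

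A list of 26 other genes of the pathway was also read. In follicular-like cells 2 of the 7 protease, turnover and surface genes tested rose, 1 of 14 transcription factors rose and 1 fell, and 1 of 3 further class II region genes rose, beside 893 genes called higher and 837 lower of all 10797. Ifi30, the lysosomal thiol reductase that unfolds antigens, had the largest change, from 444, 586 and 578 CPM to 1904, 2097 and 2136 CPM (1.94, adjusted p = 2.3e-07). Cd83, which keeps class II at the surface by opposing the ubiquitin ligase MARCH1, went from 292, 353 and 339 CPM to 742, 777 and 786 CPM (1.24, adjusted p = 6e-07). H2-Eb2, a beta chain gene beside H2-Eb1, rose by 0.26 (adjusted p = 0.023) and Pax5, the B cell identity factor, by 0.23 (adjusted p = 0.03), while Irf4, a factor of activated and plasma cells, fell by 0.80 on the log2 scale (adjusted p = 0.0031). No subunit of RFX or NF-Y was called with IL-4 in any state.

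Ifi30 and Cd83 were both called higher in 6 of the 9 states, and Ifi30 alone in precursor-gene cells. Neither was called in germinal center-like cells, where Ifi30 was at 320, 362 and 310 CPM against 414, 467 and 379 CPM, and Cd83 at 194, 225 and 214 CPM against 240, 291 and 212 CPM. The difference from follicular-like cells was called for Ifi30 (-1.59, adjusted p = 1.9e-08) and Cd83 (lower, adjusted p = 0.0026) in germinal center-like cells, and for Ifi30 in plasmablast-like (-1.36, adjusted p = 8.4e-07), cycling-like (-0.87, adjusted p = 0.01) and transitional-like cells (-0.78, adjusted p = 0.037).

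Between states, 3 of 15 genes of the transcription list were higher and 8 lower in plasmablast-like than in follicular-like cells, where 4428 of all 11294 genes were higher and 4104 lower. Prdm1 was higher by 6.85 on the log2 scale and Irf4 by 2.87, but both are markers that helped name the state. Pax5 was lower (-3.19, adjusted p = 1.6e-18), as was Stat6, the IL-4 signal transducer (-2.21, adjusted p = 6e-15). Of 7 processing genes 3 were lower, among them March1 (-3.28, adjusted p = 4.2e-16) and Cd83 (-2.81, adjusted p = 1.4e-13), and 3 were higher, among them the endosomal proteases Ctsl (1.30, adjusted p = 0.0038) and Lgmn (0.81, adjusted p = 6.3e-10). In germinal center-like cells, where 4087 of all 11294 genes were lower, 5 of 7 processing genes were, Ctss, the protease that trims the invariant chain, by the most (-1.34, adjusted p = 3.4e-12).

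Across the 18 means of state and treatment, members had a Pearson r to their common profile between 0.86 (H2-DMb1 and H2-Ab1) and 0.99 (H2-Aa). That profile is the mean of all members, so each gene is part of its own reference, which raises r. These points share libraries and the depth differences between states, so r is a description. Between single members r was highest for H2-DMa and H2-DMb2 (0.99) and lowest for H2-Ab1 and Ciita (0.62). Of 5422 other genes with a mean CPM of 20 or more, the closest to the common profile were 2210016L21Rik and 2310061I04Rik (r = 0.97 each), Farsb, a phenylalanine tRNA ligase subunit (0.97), Rhof, a small GTPase (0.95), and Phf11b (0.95). The closest to Ciita were Tbca (0.96), a tubulin folding cofactor, Grap (0.96), an adaptor of the GRB2 family, Pag1 (0.95), a membrane adaptor for Csk, Grcc10 (0.95) and Pold4 (0.95), a DNA polymerase delta subunit.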

How the data were processed

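Raw UMI counts of genes and antibody tags were deposited by the authors. Per the file headers Cell Ranger 6.0.1 wrote them. The build mm10 and, without a role, Seurat 4.1.3 are named in the submitters' processing notes. Strand use in counting is not given in the sources used here. Sets 1 to 3 held 14519, 11389 and 14222 barcodes with 107244246, 96866964 and 99522280 gene UMIs. The sets shared 219 to 289 barcodes pairwise, 1.92% to 2.03% of the smaller library.

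Treatment came from the hashtag names, Con_fb (R848) and IL4tr_fb (IL-4+R848). A cell needed at least 64 UMIs of its hashtag, 4-fold the other plus 1, at least 500 genes and under 10% mitochondrial UMIs. Barcodes with both hashtags (1567, 943 and 1312) were removed, and no other doublet caller was run. Leiden clustering at resolution 1 (seed 1) used 15 neighbours in 30 principal components of 2000 variable genes, from log values per 10000 UMIs centred within set and treatment. Clustering did not use 801 genes: the members, the pathway list, antigen receptor, ribosomal and mitochondrial genes. Of 16 clusters, 14 formed the 9 B cell states named from marker lists, 1 was NK cell-like and 1 stayed unnamed. The summed level of the general B cell markers is not reported here.

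The sums went into the quasi-likelihood test of edgeR 4.0.16 (R 4.3.3, limma 3.58.1) after filterByExpr and TMM scaling, and BH adjustment ran over all genes. DESeq2 1.42.0 was an alternative. Other alternatives were other scaling, filters, hashtag rules, clusterings and the replicate block. The library links both treatments within a set. The IL-4, gate and interaction tests did not use the set, and a fit with it as a block was an alternative, while the comparisons of states used the block. In follicular-like sums the deviations of paired sums had r = 0.490, 0.453 and 0.371, against at most -0.104 across sets, and in the other states r was lower, down to -0.0626. Gates used 2-component Gaussian mixtures on centred log-ratios of tag counts. Other software was scanpy 1.11.5, leidenalg 0.10.2, scikit-learn 1.9.0, SciPy 1.17.1 and NumPy 2.4.6 under Python 3.11.15.

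The members and gene lists were chosen with earlier results of these data known. All members are named. Of the pathway list up to 4 genes per direction with the largest called changes could be named in a comparison, and the genes named as most alike are the 5 with the highest r. The centring, the sums without immunoglobulin genes and those without the mostly IL-4+R848 cluster were chosen after seeing the data.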

Additional observations from a re-analysis of the deposited data

Results flagged for a closer look

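The IL-4 effect on H2-DMa differed between states by a test of the difference itself: in germinal center-like cells it was smaller than in follicular-like cells (log2 difference -0.47 ± 0.11, edgeR quasi-likelihood test, adjusted p = 0.012). H2-DMa was higher with IL-4+R848 in 3 of 3 sets in both states, but in germinal center-like cells its groups overlapped. It was the single member and state pair called, beside 0.921% of all gene and state pairs. The difference was not called with any set left out, at Leiden resolution 0.5 or with centring within sets only. The groups held 3 sums each, so single sums were not examined for standing apart.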

How the results depend on the processing

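In follicular-like cells 9 members were called under every alternative run except without set 1 (7 to 9 over the sets left out). With centring within sets only, 1 of the 9 was H2-Ob, called lower, and H2-DMb1 was not called. In the other states 40 of 80 member and state pairs were called, 24 to 38 with a set left out and 29 to 51 under the other alternatives. Differences of the IL-4 effect between states rested on few calls: 1 pair, against 4 with DESeq2, 2 without a low-count filter, 3 with the replicate block, 3 under the 10-fold hashtag rule, 0 at Leiden resolution 0.5, 5 with centring within sets only, 2 without immunoglobulin genes and 0 with any set left out. Of 30 member and gate pairs 19 were called, 9 to 18 with a set left out. State against follicular-like calls numbered 57 of 80, 51 to 54 with a set left out, 53 with no replicate block and 47 in IL-4+R848 cells. Counts over all genes moved as well when set 1, 2 or 3 was left out. With IL-4 the genes called higher went from 893 to 478, 441 and 638 in follicular-like cells. In cycling-like cells they went from 64 to 68, 34 and 44. Genes lower in plasmablast-like than in follicular-like cells went from 4104 to 3710, 3770 and 3490. The replicate block changed no call beyond those given above. For the DO to DM ratio, cycling-like cells had a log2 difference of -0.03, which was between -0.0686 and 0.0390 with a set left out.

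Signs reversed for Ciita in transitional-like cells with centring within sets only (-0.0665) and for H2-Ob there at resolution 0.5 (0.55). They also did at that resolution in the Zbtb32 state against follicular-like cells for Cd74 (-0.41), H2-Ab1 (-0.17), H2-DMa (-0.25), H2-DMb2 (-0.22) and H2-Eb1 (-0.33), and for H2-Ab1 in plasmablast-like cells under the 10-fold hashtag rule (0.0744). The cause was not tested. Resolution 0.5 gave no separate marginal zone-like or cycling-like state. Of the differences between treatments in the share of cells with a Ciita, H2-Oa or H2-DMb1 UMI, 20 moved by more than the spread between sets when cells were not thinned to equal depth.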
